A study of Mus musculus with 2 samples.

Results

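Ebf2-positive Purkinje cells of the newborn mouse cerebellum are described here, in 1 single-cell RNA library of the Cxcr4+/+ genotype, called control below, and 1 of the Cxcr4+/1013 genotype, called mutant. The cells were chosen by raw counts of unique molecular identifiers (UMIs, each standing for 1 captured RNA molecule). A barcode needed at least 500 detected genes and at most 20% of its UMIs from mitochondrial (mt-) genes. It also needed at least 2 UMIs of Calb1, of Car8, of Skor2 and Pcp2 together, and of Ebf2. These limits gave 596 cells in the control library and 553 in the mutant library, 1149 in all. They came from 17717 barcodes that passed the gene and mt- limits, and from 19137 barcodes deposited.

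Lobules III and IV were dissected at postnatal day 1 and dissociated with papain, and the RNA was counted from its 3' end in droplets. The controls were littermates of the mutants, and both libraries carry the strain label B6.129S2-Cxcr4tm1.1Bala. The 1013 allele encodes a CXCR4 chemokine receptor with a shortened tail, a mouse model of an inherited immunodeficiency, and the series title asks about brain development in that disease. How many animals were pooled for a library is not stated in the labels, and the extraction protocol writes the mutant genotype as Cxcr4+/-, where the genotype label writes Cxcr4+/1013. Both libraries held cells with Xist and cells with Y-linked transcripts, so that each pooled tissue of both sexes. With 1 library per genotype no test was possible, no difference has a replicate check, and each interval printed is a 95% interval that covers counting error only.

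Purkinje cells are the inhibitory output neurons of the cerebellar cortex. Around birth they leave their embryonic clusters for a single layer, guided by Reelin from granule cells, and they supply granule cell progenitors with the mitogen Sonic hedgehog. Ebf2 is a helix-loop-helix transcription factor of the early B-cell factor family. In the adult cortex it marks the Purkinje stripes that lack zebrin II, the enzyme aldolase C encoded by Aldoc, and mice without Ebf2 have fewer Purkinje cells and blurred stripes. The Ebf2 gene lies on the plus strand of chromosome 14 at chr14:67233292-67430918 (GRCm38, GENCODE vM21).

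Nearly every Purkinje cell carried Ebf2. Of the 604 control and 565 mutant barcodes that met the Calb1, Car8 and Skor2 or Pcp2 limits, 98.7% (97.4% to 99.4%) and 97.9% (96.3% to 98.9%) also met the Ebf2 limit. The limit lay far from the bulk of the cells, since 92.9% of the Purkinje cells in each library held 10 or more Ebf2 UMIs. The median member had 33 Ebf2 UMIs in the control library (range 2 to 113) and 36 in the mutant library (range 2 to 91). Just inside the limit, 1 control and 3 mutant cells had 2 UMIs and 4 in each library had 3. Just outside it, 5 control and 6 mutant cells had 1 UMI, and 3 and 6 had none.

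**Figure D1:**
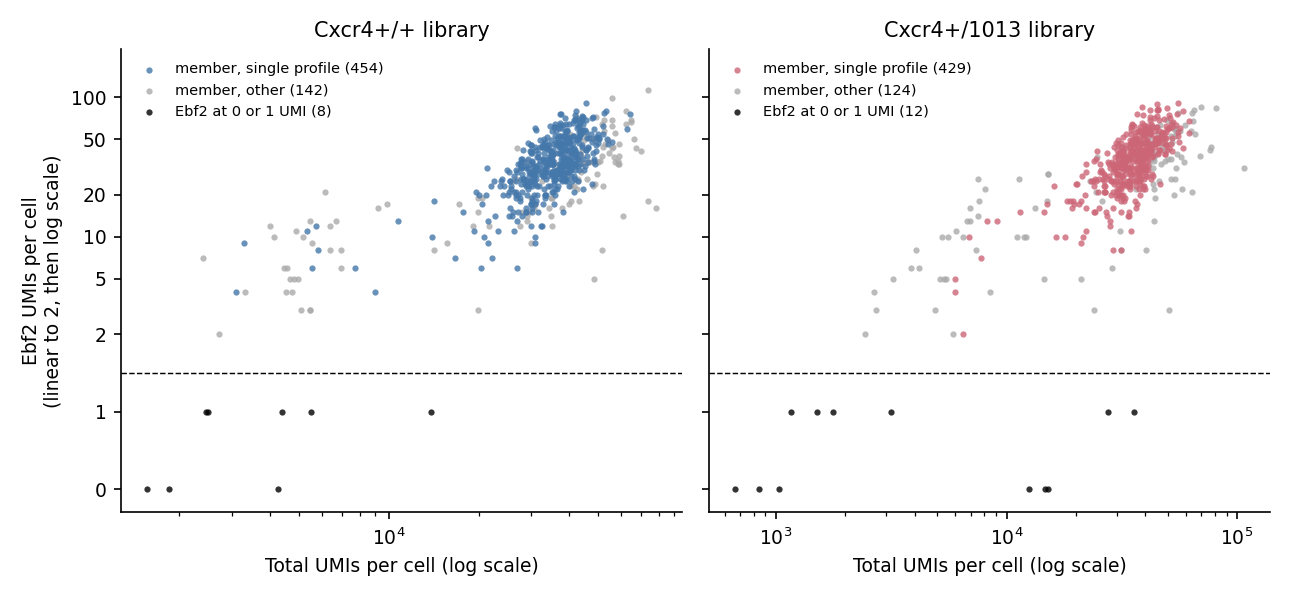
Ebf2 UMIs (vertical axis, linear to 2 and logarithmic above) against total UMIs (horizontal axis, log scale) for each Purkinje cell of the control (left) and mutant (right) library. Coloured points are members in clusters with 1 profile, grey points are the other members and black points are cells under the limit of 2, marked by the dashed line. The black points number 8 and 12, against 596 and 553 members.

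The cells without Ebf2 were mostly shallow. The 3 control cells with 0 Ebf2 UMIs had 1554, 1852 and 4266 UMIs in total. Of the 6 mutant ones, 3 had 662, 840 and 1028 UMIs, and the other three had 12572, 14651 and 15067 UMIs and lay in clusters that carried markers of other cell classes. Among cells with at least 10000 UMIs, thinned to 10000 each, 531 of 536 control and 493 of 501 mutant Purkinje cells kept 2 or more Ebf2 UMIs. A comparison of Purkinje cells with and without Ebf2 was therefore not possible in these data, and the label describes the Purkinje population as a whole.

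Ebf2 levels outside the members are given next, as a description, since the rule had set a minimum of Ebf2 for the members. Over the members' summed UMIs Ebf2 stood at 964 CPM (UMIs of the gene per 1000000 UMIs of the summed cells) in control and 1015 CPM in mutant members, against 54.6 and 61.9 CPM over all other kept barcodes. Barcodes with at least 2 UMIs of Pax2, a marker of young inhibitory interneurons, held 87.6 and 92.5 CPM, and those with Atoh1, the granule progenitor factor, held 49.9 and 56.3 CPM. Barcodes with Col1a2 and Col3a1, the collagens of fibroblasts, held 8.30 and 13.7 CPM. Of these barcodes 8.30% and 15.1% had an Ebf2 UMI, at median depths of 15163 and 16357 UMIs. The share with a UMI differed between classes, being 42.2% and 49.4% in the Atoh1 barcodes at median depths of 18167 and 19625 UMIs. How much of this low level was free RNA was not tested.

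The members were large and rich in mitochondrial transcripts. Their median was 36036.5 UMIs (control) and 36608 UMIs (mutant), against 11104.5 and 12652 in the other kept barcodes, and their median number of genes was 6874 and 6891 against 3999 and 4344. Mitochondrial genes gave a median of 7.65% and 7.61% of their UMIs, against 3.12% and 2.76% in the others. The libraries held 120003656 and 130429500 UMIs. They shared 25 barcode sequences by name, of which 0 were members in both.

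The label was checked against Purkinje markers that the rule did not use, most of which were high in the members. Pcp4, a calmodulin-binding protein abundant in Purkinje cells, stood at 4642 and 4848 CPM, 38.3-fold and 45.7-fold above the other barcodes. Itpr1, the calcium release channel of the endoplasmic reticulum, stood at 921 and 1056 CPM, and Foxp2, a Purkinje transcription factor, at 1355 and 1400 CPM. Lhx1, a homeodomain factor of Purkinje precursors, stood at 306 and 372 CPM, whereas its paralogue Lhx5 was lower in members, at 7.29 and 6.66 CPM, than in the others, at 31.4 and 35.8 CPM. Ppp1r17, a phosphatase inhibitor of mature Purkinje cells, was near the background at 1.14 and 1.21 CPM. Of the 5 genes of the rule, Calb1 (calbindin, a calcium buffer) stood at 3564 and 3636 CPM and Car8 (an Itpr1-binding relative of carbonic anhydrase) at 4251 and 4418 CPM. Pcp2 (a G protein regulator) stood at 673 and 748 CPM, and Skor2 (a corepressor needed for Purkinje differentiation) at 132 and 145 CPM. These values only describe the choice of cells.

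Ebf2 was expressed with its relatives. Ebf1 stood at 2967 CPM in control members and 3369 CPM in mutant members, 13.3-fold and 12.8-fold above the other barcodes. Ebf3 stood at 724 and 795 CPM, 3.36-fold and 2.93-fold above them. Ebf4 was lower in members, at 1.47 and 1.11 CPM, than in the others, at 7.18 and 7.28 CPM. The nuclear receptor Nr2f2 was 19.2-fold and 63.0-fold above the other barcodes, at 324 and 389 CPM. Rora, the nuclear receptor lost in staggerer mice, stood at 1706 and 1741 CPM.

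Growth factors were among the genes that set the members furthest apart from other cells. By the ratio in the library where it was smaller, the leading 12 genes of at least 20 CPM were Smpx, Il22, Igf1, Fgf3, Zfp385c, Itpka, Cck, Thy1, Nrk, Plekhd1, Esrrb and Dgkg. Igf1, insulin-like growth factor 1, stood at 942 and 1152 CPM in members and at 12.6 and 7.54 CPM in the others, 74.6-fold and 153-fold apart. Fgf3, a fibroblast growth factor, stood at 46.6 and 51.5 CPM, 70.3-fold and 75.3-fold above the others. The cytokine gene Il22 stood at 34.2 and 32.8 CPM, 83.7-fold and 103-fold above them. The neuropeptide gene Cck stood at 717 and 695 CPM, 65.0-fold and 93.2-fold above the others. Esrrb, an orphan nuclear receptor, stood at 22.7 and 30.8 CPM.

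Of the signals that Purkinje cells are known to send, several were concentrated in the members. Shh, the mitogen of granule cell progenitors, stood at 19.8 and 20.5 CPM, against 0.23 and 0.22 CPM in the other barcodes, 84.4-fold and 93.7-fold apart. Kitl, the ligand of the KIT receptor on interneurons, stood at 1115 and 1067 CPM, 23.4-fold and 32.5-fold above the others. Sema3a, a repellent of growing axons, stood at 1124 and 1162 CPM, 25.6-fold and 32.1-fold above them. The neurotrophins Bdnf and Ntf3 were lower in members than in the others, Bdnf at 1.28 and 0.61 CPM and Ntf3 at 0.66 and 0.40 CPM. The Reelin pathway was present on the receiving side. Dab1, the adaptor that carries the Reelin signal, stood at 2775 and 2680 CPM and was 14.6-fold and 15.3-fold above the other barcodes, and its receptor Vldlr stood at 178 and 209 CPM. The second receptor, Lrp8, was at 61.9 and 62.1 CPM, close to the 68.6 and 66.6 CPM of the others. Reln itself was at 37.7 and 30.5 CPM in members against 441 and 562 CPM elsewhere.

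Transcripts of both adult stripe classes were present in the members, apart from zebrin itself. Aldoc, which defines the zebrin-positive stripes, was lower in members (5.72 and 2.98 CPM) than in other barcodes (35.4 and 21.4 CPM). Other genes of zebrin-positive stripes were present, with the glutamate transporter Slc1a6 at 29.9 and 35.9 CPM, the GABA receptor subunit Gabbr2 at 232 and 230 CPM, the chaperone Hspb1 at 93.6 and 101 CPM, and the sphingosine kinase Sphk1 at 51.7 and 50.3 CPM. Plcb4, the phospholipase of zebrin-negative stripes, stood at 1554 and 1582 CPM, 12.6-fold and 13.2-fold above the others.

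The receptor that the mutation alters was nearly absent from these cells. Cxcr4 (chr1:128588199-128592293, minus strand) gave 54 UMIs in all control members and 37 in all mutant members, 2.55 and 1.87 CPM, against 31.8 and 27.8 CPM in the other barcodes. A 3' count does not tell the 1013 transcript from the normal one, so these values are no check of the genotype. Its ligand Cxcl12 stood at 6.48 and 1.11 CPM in members and at 95.002 and 35.2 CPM in the others. The second CXCL12 receptor, Ackr3, gave 21 and 9 UMIs. In members of clusters with 1 profile, described next, Cxcr4 gave 11 and 10 UMIs and Cxcl12 gave 10 and 8.

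The 1169 Purkinje cells were clustered without Ebf2 among the clustering genes, which gave 9 clusters. Clusters 1, 2, 3, 5 and 6 held 896 cells, all of them members, and none had 3 or more markers of another class enriched. The list for unipolar brush or rhombic lip cells held 2 markers and could not reach that number. Lists of 3 markers needed all of them. Single markers of other classes could still be high, as were Sst and Pecam1 in cluster 5, described below. Clusters 4 and 7, of 124 and 82 cells, also carried markers of granule cells, interneurons or nuclear neurons (cluster 4) and of astroglia and granule progenitors (cluster 7). In these 2 clusters 68.5% and 70.7% of the cells had a high doublet score, and 57.3% and 45.1% held both Xist and Y-linked UMIs, against at most 9.35% by either measure in the other 7. Their median depth was 43183.5 and 45532 UMIs. Cluster 8, of 51 cells, was shallow at a median of 5563 UMIs, with 1.71% mitochondrial UMIs, 22449 CPM of the nuclear RNA Malat1, and antisense and long noncoding transcripts such as Nrg3os among its leading genes. Ebf2 was at 1657 and 1603 CPM there. Cluster 9 held 16 cells at a median of 2146.5 UMIs, of which 2 were members.

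**Figure D2:**
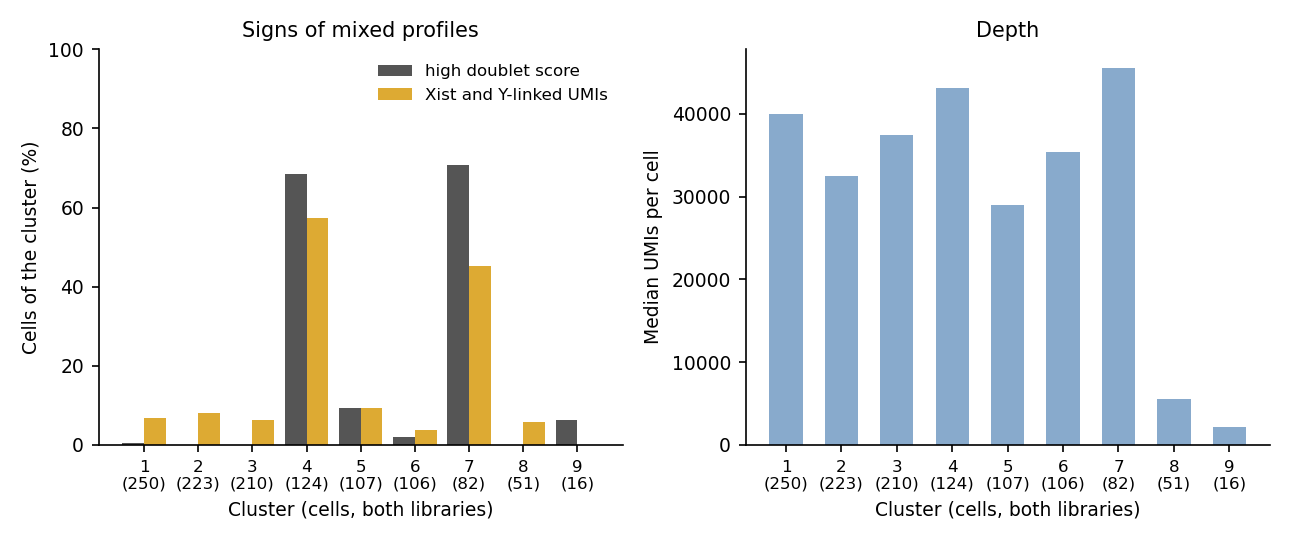
Left, share of cells in each cluster (percent) with a high doublet score (dark bars) and with both Xist and Y-linked UMIs (yellow bars). Right, median UMIs per cell in each cluster, with the number of cells under each cluster number. Clusters 4 and 7 stand out on the left, and clusters 8 and 9 have the lowest depth.

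Members outside clusters 4, 7, 8 and 9 and without a high doublet score are called single-profile members below. They were 454 control and 429 mutant cells. This set was chosen after the data were seen. Counts of genes apart between the libraries are given with and without the mixed clusters. The levels set against other barcodes above are over all members, mixed clusters included. Over clusters 1, 2, 3, 5 and 6, Reln ran from 4.02 to 11.3 CPM in the control library. In the mutant library it ran from 2.04 to 7.50 CPM. Aldoc ran from 0.39 to 5.62 CPM and from 0.42 to 2.71 CPM in these clusters. Members made up 6.63% (6.13% to 7.17%) of kept control barcodes and 6.33% (5.83% to 6.86%) of kept mutant barcodes, a ratio of 0.955 (0.849 to 1.07). For single-profile members the ratio was 0.972 (0.8499 to 1.11), so a difference in share was not detectable at this depth. With the rule applied to cells thinned to 10000 UMIs the ratio was 0.846 (0.747 to 0.958). In that setting the denominator held 5270 control and 5784 mutant barcodes, because fewer control barcodes reached the depth.

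Ebf2 itself varied little between the 5 single-profile clusters. It was highest in cluster 1, at 1156 and 1191 CPM, and lowest in cluster 5, at 835 and 809 CPM, a spread of 1.39-fold and 1.47-fold. Ebf1 spread 1.43-fold and 1.52-fold, with its highest level in cluster 5 (3616 and 4044 CPM), and Ebf3 spread 1.24-fold and 1.35-fold. Ebf2 therefore did not mark one of these clusters in particular. The leading genes of each cluster are described here without a test, because the clusters were made from those genes.

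Cluster 1, with 132 control and 118 mutant cells, had several cadherin genes among its leading genes. Cdh12 stood at 383 CPM in the cluster and 109 CPM in the other single-profile clusters of the control library, and at 400 and 140 CPM in the mutant library. Cdh9 stood at 2183 against 690 CPM and at 2224 against 883 CPM, and Cdh18, Pcdh15, the netrin receptor Dcc and the proteoglycan Vcan were also among the leading genes. Outside the leading genes, Epha4, a receptor of ephrins, was highest here at 290 and 321 CPM. Sema3a (1683 and 1793 CPM), Igf1 (1304 and 1509 CPM) and Plcb4 (2013 and 2140 CPM) were also highest in this cluster, while Pcp2 was lowest at 504 and 579 CPM.

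Cluster 2, with 79 and 144 cells, had the weakest signature, with no leading gene above 2.80-fold. Fgf3 stood at 105 against 40.6 CPM in the control and at 85.5 against 41.3 CPM in the mutant library. Pvalb, the calcium buffer parvalbumin, stood at 42.1 against 21.6 CPM and at 56.8 against 26.3 CPM. Fgf15 and the LIM protein gene Csrp2 were also among its leading genes.

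Cluster 3, with 121 and 89 cells, was led by the collagen gene Col11a1, the cadherin gene Cdh4 and the transcriptional regulators Lmo4 and Pax5. Cdh4 stood at 736 against 196 CPM in the control and at 630 against 147 CPM in the mutant library. Lmo4 stood at 261 against 64.3 CPM and at 298 against 82.4 CPM. Runx1t1, a corepressor, was highest here at 542 and 515 CPM.

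Cluster 5, with 56 and 51 cells, had the strongest signature. Rorb (chr19:18930605-19111196), a nuclear receptor related to Rora, stood at 137 against 2.07 CPM in the control and at 193 against 1.28 CPM in the mutant library. Tshz2, a zinc finger factor, stood at 161 against 1.93 CPM and at 233 against 2.27 CPM. Sst, the neuropeptide somatostatin, stood at 189 against 4.90 CPM and at 210 against 2.27 CPM, and 48.2% and 52.9% of the cells had a UMI of it. The homeobox gene En1 and the protocadherin Pcdh10 were also among its leading genes. Gpc5, a heparan sulphate proteoglycan of the cell surface (chr14:115092215-116525179), stood at 1968 against 97.4 CPM and at 2143 against 74.6 CPM.

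Genes of the adult stripes did not share one direction in cluster 5. Of the zebrin-positive list Slc1a6 was highest there at 88.6 and 109 CPM, and so was Prkcd, a protein kinase C, at 18.7 and 24.4 CPM. Gabbr2 was lowest there, at 130 and 135 CPM, and so was Hspb1, at 60.5 and 30.5 CPM. Of the zebrin-negative list Plcb4 was lowest in cluster 5, at 607 and 449 CPM, while Nrp2, a semaphorin receptor, was highest at 78.6 and 86.9 CPM. Sema3a was lowest there, at 594 and 529 CPM. Igf1 was lowest in it too, at 411 and 376 CPM. Ebf2 was lowest in cluster 5 as well, by the small margin given above.

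Cluster 6, with 70 and 36 cells, was led by Nr2f1, a nuclear receptor (chr13:78188973-78199757), at 56.0 against 0.72 CPM in the control and at 32.9 against 0.49 CPM in the mutant library. Sulf1, a sulphatase that edits heparan sulphate (chr1:12692277-12861192), stood at 324 against 29.9 CPM and at 169 against 22.0 CPM. The acid-sensing channel Asic2 stood at 819 against 186 CPM and at 804 against 217 CPM. Pcp2 (1179 and 1494 CPM), Itpr1 (1380 and 1824 CPM), Gabbr2 (412 and 391 CPM) and Kitl (1779 and 1533 CPM) were all highest in cluster 6. Shh differed little between the clusters, from 15.3 to 24.7 CPM in the control and from 19.7 to 27.1 CPM in the mutant library.

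**Figure D3:**
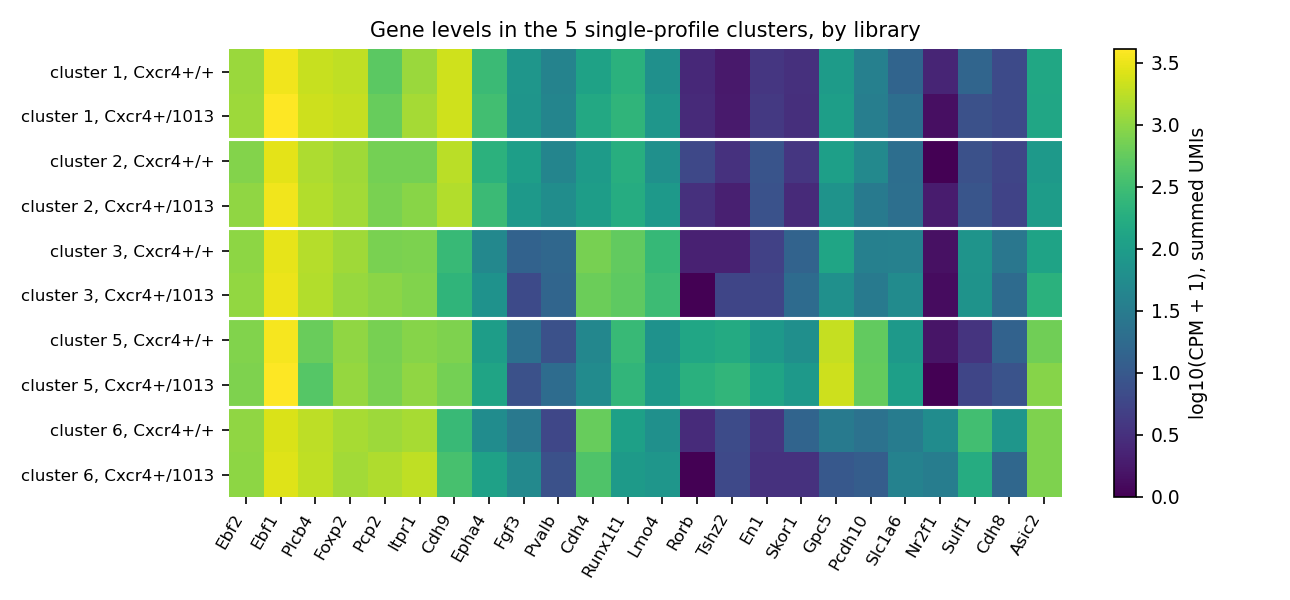
Summed level of 24 genes (columns) in the 5 single-profile clusters of each library (rows), as log10(CPM + 1) from 0 (dark) to the highest level (yellow). Ebf2 and Ebf1 are near even from top to bottom, Rorb, Tshz2, En1, Gpc5 and Pcdh10 are bright in cluster 5, and Nr2f1 and Sulf1 in cluster 6.

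Cell-to-cell variation followed the same genes. After each member with at least 10000 UMIs was thinned to 10000, 211 of 6186 genes compared (3.41%) had a variance of at least 2 times the mean in both libraries. The median gene stood at 1.06 and 1.07, close to the value of 1 that counting alone gives. Among all members the astroglial transcript Fabp7 led, at 29.9 and 38.7, and Apoe stood at 13.1 and 25.2. Neither was among the leading 12 genes in single-profile members, where 140 of 6034 genes (2.32%) passed. Gpc5 led there at 22.6 and 19.3, and Gpc6, Malat1 and Brinp3 came next. In all members Ebf2 was at 1.45 and 1.84, with means of 10.1 and 10.5 UMIs per thinned cell. Pcp2, at means of 7.47 and 8.38 UMIs, was at 3.42 and 4.42. The rule had set a minimum on both.

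Within the single-profile members the rank correlations of other genes with Ebf2 were weak. Over 446 control and 422 mutant cells thinned to 10000 UMIs, Spearman's rho with Ebf2 was 0.27 in both libraries for Plcb4, 0.26 and 0.27 for Sema3a, 0.28 and 0.30 for the adaptor gene Plekha5, and 0.29 and 0.22 for Foxp2. It was 0.20 in both for Ebf1, 0.15 and 0.20 for Ebf3, and -0.024 and 0.060 for Rora. It was -0.25 and -0.27 for Pcp4 and -0.23 and -0.28 for the actin-binding gene Tmsb10. The central 95% of all 6034 genes lay from -0.115 to 0.121 among control cells and from -0.125 to 0.135 among mutant cells. These values describe cells of 1 library each, which share dissection, depth and clusters, and carry no p.

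The mutant and control libraries were then set side by side within the members. Ebf2 stood at 1017 CPM in control and 1056 CPM in mutant single-profile members, a log2 ratio of 0.06 (0.02 to 0.09). In all members it was 0.07. Ebf1 was 0.16 (0.14 to 0.18) and Ebf3 0.13 (0.09 to 0.16) in single-profile members. Of the rule's other genes, Calb1 was at 0.03, Car8 at 0.05, Skor2 at 0.10 and Pcp2 at 0.17. A gene with 50 or more UMIs in the 2 libraries together was counted as apart at 1.5-fold, a limit of size and not a test. In all members 14006 genes were compared, of which 344 (2.46%) were higher and 491 (3.51%) were lower in the mutant library. In single-profile members 12910 were compared, of which 285 (2.21%) were higher and 314 (2.43%) were lower. The sets overlapped in 191 higher genes (55.5% of those in all members and 67.0% of those in single-profile members) and 147 lower genes (29.9% and 46.8%). Of those in all members, 104 higher and 264 lower genes had fewer UMIs than the minimum in single-profile members and could not overlap.

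The genes furthest apart in all members were mostly those of other cell types, and single cells carried many of them. Higher in the mutant library were the endothelial genes Cldn5, Slc38a5, Ecscr and Ctla2a, with Higd1b, Slco1c1, Igfbp7, Klf2 and Cxcl2. Cldn5, a tight junction protein, gave 25 UMIs in control and 293 in mutant members, a log2 ratio of 3.64, and 92.5% of the mutant UMIs came from 1 cell. In single-profile members it gave 17 and 16 UMIs. Lower in the mutant library were the fibroblast genes Dcn, Col1a2 and Col3a1, the ciliated cell genes Tmem212, Ccdc153 and Fam183b, the astroglial gene Aqp4, the macrophage gene Lyz2, and S100a6. Col1a2, a collagen chain, gave 165 and 9 UMIs, and 35.2% of the control UMIs came from 1 cell. The same gene was lower in the mutant library's other barcodes, at 90.8 and 20.98 CPM. The endothelial genes went against the members there, with Cldn5 at 73.9 and 34.6 CPM (-1.10) and log2 ratios of -1.26 for Slc38a5, -1.03 for Ecscr and -1.17 for Ctla2a.

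Marker lists of other cell types moved with this choice of cells. Of 8 astroglial markers tested in all members 7 were lower and 0 higher in the mutant library, beside 3.51% lower of all genes compared. Their summed level was 261 and 141 CPM. In single-profile members it was 74.96 and 50.2 CPM, and 3 of 5 tested were lower, beside 2.43% of all genes. In the mutant library's other barcodes all 8 were lower too, with log2 ratios from -1.45 (Hes5) to -0.52 (Slc1a3). The 5 fibroblast markers summed to 24.7 and 2.22 CPM in all members and to 3.81 and 1.30 CPM in single-profile members. The 3 erythroid markers summed to 4.87 and 87.9 CPM in all members, 48.8% of the mutant UMIs coming from 1 cell, and to 5.38 and 3.33 CPM in single-profile members. The 6 granule neuron markers summed to 143 and 136 CPM in all members and to 61.4 and 60.5 CPM in single-profile members. Their part in other differences was not tested, so the comparison below is in single-profile members.

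**Figure D4:**
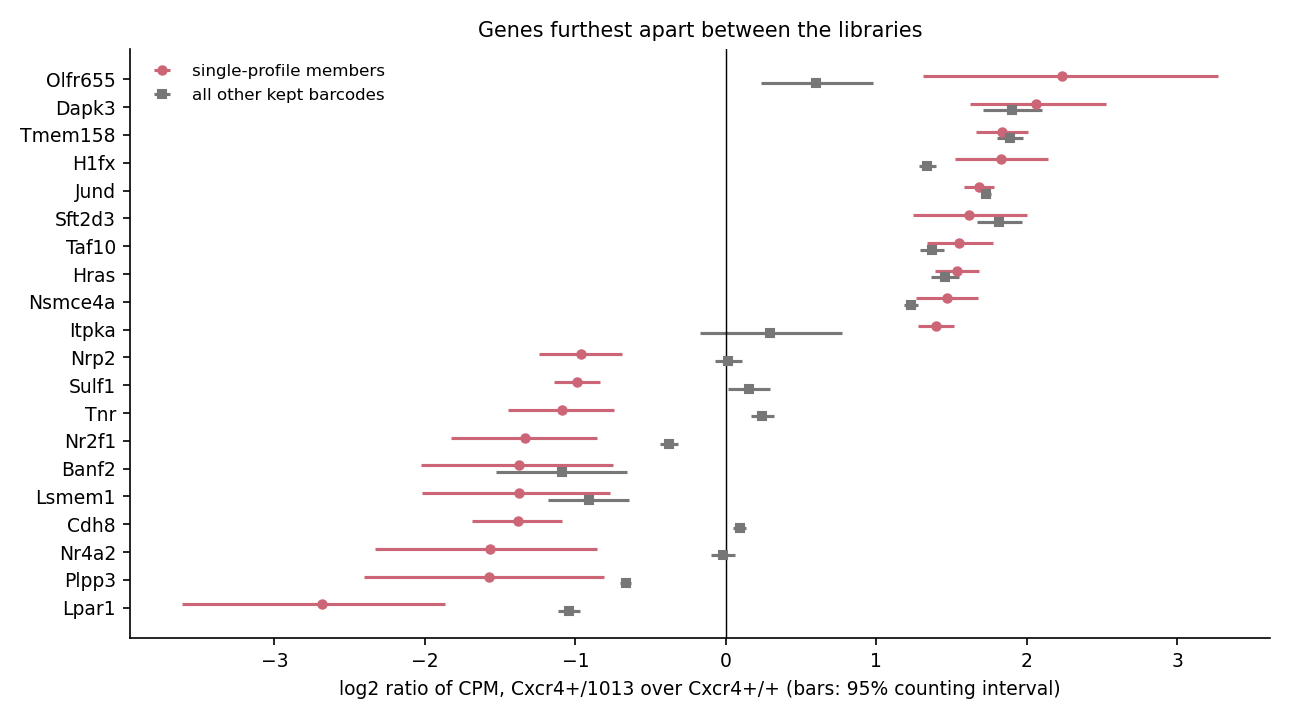
Log2 ratio of CPM, mutant over control, for the 20 named genes in single-profile members (red circles) and in all other kept barcodes (grey squares), with bars for the 95% counting interval. For Tmem158, Dapk3, Jund, Sft2d3, Taf10 and Hras the 2 intervals overlap, while for Itpka, Cdh8, Sulf1, Tnr and Nrp2 they do not.

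Most genes that led the higher side were also higher outside the members. The 10 genes were Tmem158, Dapk3, Jund, H1fx, Hras, Taf10, Olfr655, Itpka, Nsmce4a and Sft2d3, and all but Itpka, that is 9 of them, were at least 1.5-fold higher in the other mutant barcodes too. Tmem158, a membrane protein gene induced by Ras signalling (chr9:123259053-123260764), stood at 22.8 CPM in control and 81.1 CPM in mutant members, a log2 ratio of 1.83 (1.66 to 2.01), and at 1.88 in the other barcodes. Jund, a subunit of the AP-1 transcription factor (chr8:70698949-70700616), stood at 69.8 and 224 CPM, a log2 ratio of 1.68 (1.58 to 1.78), against 1.73 in the others. Hras, the small GTPase (chr7:141189105-141194005), stood at 32.5 and 94.1 CPM, a log2 ratio of 1.53 (1.39 to 1.68), against 1.45 in the others. The log2 ratio was near equal in female and male cells, at 1.82 and 1.81 for Tmem158, 1.72 and 1.61 for Jund, and 1.62 and 1.46 for Hras. Nsmce4a overlaps Fgfr2 on the same strand in the annotation, so its count is uncertain.

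Itpka was higher in mutant members by a margin not seen in the other barcodes. This kinase of inositol trisphosphate also bundles actin in dendritic spines, and its gene lies at chr2:119742337-119751263. It stood at 48.5 CPM in control and 127 CPM in mutant single-profile members, a log2 ratio of 1.39 (1.27 to 1.52). Female cells gave 1.21 and male cells 1.59. The UMIs were spread over 325 of 454 control and 402 of 429 mutant cells. In the other barcodes it was scarce, at 0.68 and 0.84 CPM, with a log2 ratio of 0.30 (-0.17 to 0.77). Olfr655, an odorant receptor gene, rested on 12 and 54 UMIs, with 33.3% of the mutant UMIs in 1 cell.

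Of the 10 genes that led the lower side, 4 were also at least 1.5-fold lower outside the members (Lpar1, Plpp3, Lsmem1 and Banf2). The others were Cdh8, Nr2f1, Nr4a2, Sulf1, Tnr and Nrp2. Cdh8, a cadherin (chr8:99024471-99416471), stood at 22.1 and 8.48 CPM, a log2 ratio of -1.38 (-1.69 to -1.09), and at 0.09 in the other barcodes. Sulf1 stood at 69.7 and 35.1 CPM and its log2 ratio was -0.99 (-1.14 to -0.84), against 0.15 in the others. Its UMIs came from 203 control and 131 mutant cells. Nrp2 was at -0.97 (-1.24 to -0.69) and 0.02, and Tnr, an extracellular matrix protein, at -1.09 (-1.45 to -0.74) and 0.24. Cdh8, Nr2f1 and Sulf1 were all highest in cluster 6 of the control library.

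Purkinje gene lists were near even between the libraries. Of 18 Purkinje identity genes tested in single-profile members, 0 were higher and 1 was lower (Lhx5, -0.63), with a median log2 ratio of 0.05, where the median of all genes compared was 0.005. Of 28 transcription factors 0 were higher and 2 lower (Lhx5 and Nr2f1), with a median of 0.04. Of 6 zebrin-negative genes 1 was lower (Nrp2), of 8 zebrin-positive genes none was on either side, and the medians were 0.02 and 0.03. Of 29 genes of dendrite and synapse maturation 0 were on either side, with a median of 0.05. Beside them stand the 2.21% higher and 2.43% lower of all genes compared, and counts of 0 to 2 genes per list are too small to be read against those shares.

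Signals and receptors with enough UMIs to be compared were also near even. Of 8 secreted signals tested 0 were higher and 1 was lower, Sema6a at -1.07 (-1.51 to -0.63), which in all members was at -0.14. Shh was at 0.09 (-0.13 to 0.32), Kitl at -0.09 (-0.12 to -0.06) and Sema3a at 0.03. Igf1 was at 0.29 (0.26 to 0.32), at 1024 and 1249 CPM, under the 1.5-fold limit. Of 4 Reelin genes 0 were on either side, with Dab1 at -0.09 and Vldlr at 0.21. Of 9 genes of the CXCL12 axis tested 0 were on either side, with a median of 0.08. Cxcr4 was at -0.08 (-1.47 to 1.30), an interval too wide to show a difference at this depth.

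Among the 29 embryonic Purkinje cluster genes tested, 0 were higher and 3 lower, with a median of -0.05, beside 2.21% higher and 2.43% lower of all genes. Of 28 tested by sex, 2 were higher and 4 lower in female cells, beside 2.84% higher and 2.31% lower of all genes. In male cells 0 were higher and 6 lower, beside 2.58% and 2.95% of all genes. The lower ones in both sexes together were Cdh8, Nrp1 (-0.71) and Nrp2, and the Nrp genes encode semaphorin receptors. Some guidance genes lay apart by less than 1.5-fold with narrow intervals. Epha4 stood at 157 and 222 CPM, a log2 ratio of 0.50 (0.42 to 0.57). Its possible ligand Efna5 was at -0.48 (-0.54 to -0.41) and Cdh4 at -0.44 (-0.50 to -0.38). Epha4 was at 0.58 in female and 0.40 in male cells, and Efna5 at -0.40 and -0.61.

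Activity and stress genes lay on both sides. Of 12 immediate early and heat shock genes tested 1 was higher (Jund) and 2 were lower, Junb at -0.71 (-0.92 to -0.51) and Egr1 at -0.81 (-1.13 to -0.49), with a median of -0.25, beside 2.21% higher and 2.43% lower of all genes. The median was -0.12 in female and -0.095 in male cells, and the list summed to 788 and 831 CPM. Fos was at -0.37 and at -0.45 in the other barcodes. Of 13 mitochondrially encoded genes 1 was higher, mt-Nd3, a complex I subunit, at 0.60 (0.57 to 0.62), and the list's median was -0.05. Of 20 nuclear genes of the respiratory chain 0 were on either side, with a median of -0.02.

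Summed levels of the leading genes of clusters 5 and 6 stood apart between the libraries to a different extent in female and male cells, together with the numbers of cells in those clusters. The difference between the sexes was not tested. Of the single-profile cells 227 control and 175 mutant ones were female (Xist alone), and 197 and 215 were male (Y-linked UMIs alone). The 12 leading genes of cluster 5 had a median log2 ratio of 0.32 in female cells, with 2 higher and 1 lower, and of -0.78 in male cells, with 1 higher and 8 lower. Over all genes 2.84% were higher and 2.31% lower in female cells, and 2.58% and 2.95% in male cells. Rorb was at 0.88 (0.48 to 1.28) in female and -1.01 (-1.44 to -0.58) in male cells. Gpc5 was at 0.54 (0.46 to 0.63) and -1.18 (-1.29 to -1.08), that is, 259 and 378 CPM in female cells and 301 and 133 CPM in male cells.

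The leading genes of cluster 6 ran the other way by sex. Their median was -1.10 in female cells, with 8 of 12 lower, and -0.07 in male cells, with 2 of 11 lower and 1 higher. Sulf1 stood at 100.2 and 29.2 CPM in female cells, with a log2 ratio of -1.78 (-2.02 to -1.54), whereas male cells gave 40.5 and 40.8 CPM and 0.01 (-0.23 to 0.25). Nr2f1 was at -1.75 (-2.52 to -1.03) and -0.72 (-1.46 to 0.00). The numbers of cells in these clusters moved with the sums. Of the female cells, 22 of 227 in the control library lay in cluster 5 and 25 of 175 in the mutant one. For male cells these were 28 of 197 and 12 of 215. Cluster 6 held 48 and 13 female cells, and 16 and 22 male cells. Within cluster 5, Gpc5 was at 1968 and 2143 CPM with both sexes summed, and within cluster 6 Sulf1 was at 324 and 169 CPM. The clusters were made from these genes, so their sizes are no separate result. With 1 library per genotype, animal, dissection and genotype cannot be told apart.

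**Figure D5:**
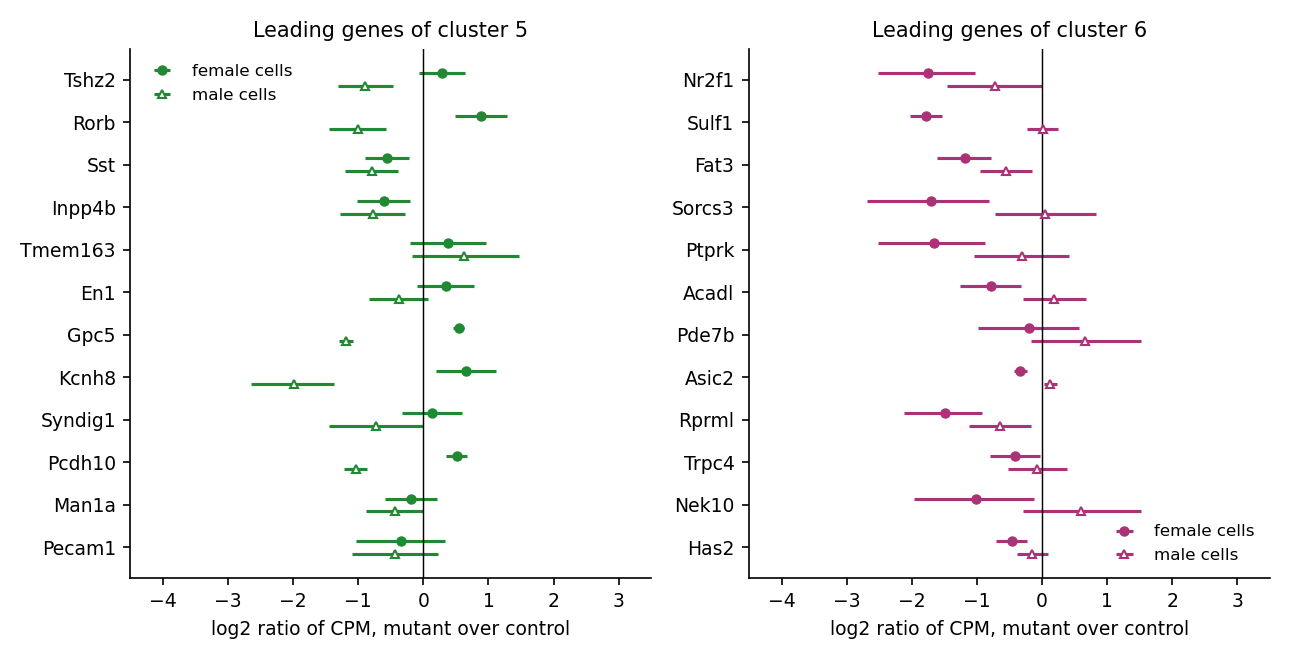
Log2 ratio of CPM, mutant over control, in single-profile female (filled circles) and male (open triangles) cells, for the 12 leading genes of cluster 5 (left) and of cluster 6 (right), with bars for the 95% counting interval. With both intervals clear of 0, Rorb, Gpc5, Kcnh8 and Pcdh10 lie above 0 in female and below 0 in male cells. For Sulf1 the female value is -1.78 and the male value 0.01.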

How the data were processed

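Both libraries were sequenced from droplets with 10x Genomics 3' chemistry, and Cell Ranger 7.2, bcl2fastq 2.20.0.4222 and mm10 are named in the submitters' processing notes. The deposited matrices held raw counts, whole-number UMI counts for 32285 genes and each barcode, with no normalisation. Whether intronic reads were counted was not stated. The rule was applied to these counts, and the members and gene lists were chosen with earlier results of these data known.

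For each gene the members' UMIs were added up in each library and scaled to CPM. Shares carry exact Clopper-Pearson 95% intervals and ratios exact conditional binomial 95% intervals. A group at 0 was set to a floor of 3 counts over the library. Genes reaching 50 UMIs in the libraries together were compared at 1.5-fold, with no test. Named genes for the genotypes were the 10 higher and the 10 lower whose interval bound nearest to 1 lay farthest from 1, without the rule's genes and sex-linked, mt-, ribosomal and haemoglobin genes. The same rule was then applied to single-profile members, a set added after seeing the data. Against other barcodes the rule took 12 genes by ratio, for variation 12 by variance over mean, and members of the fixed lists could be named.

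Purkinje cells were clustered in scanpy 1.11.5 (2000 variable genes without Ebf2 and sex-linked genes, 20 principal components, 15 neighbours, Leiden clustering in igraph 0.11.9 at resolution 0.5). Doublets were scored with Scrublet, taking the highest scores at 0.8% per 1000 barcodes, which were 7.67% and 7.64% of kept barcodes, 84 control and 72 mutant members among them. A cluster with at least 3 markers of another class at 2-fold was called mixed. Cells were female with Xist and no Y-linked UMI, male with the reverse. Of the members 263 and 209 were female, 235 and 257 male, 89 and 82 had both, and 9 and 5 had neither. edgeR 4.0.16 (TMM) and DESeq2 1.42.0 gave scaling factors only, in R 4.3.3. The scripts were tested on simulated counts in Python 3.11.15, and numpy 2.4.6 and scipy 1.17.1 were used. Results for some genes are not reported here. The planned comparison with Ebf2-negative Purkinje cells was not made, since 3 and 6 cells were too few for the minimum of 50.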

Additional observations from a re-analysis of the deposited data

Results flagged for a closer look

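In single-profile members 19 of the genes reported here had a log2 ratio of mutant to control on opposite sides of 0 in female and male cells. For each of them both counting intervals were clear of 0. These intervals are narrow for genes with many UMIs, so small ratios passed, as for Cox8a at -0.05 and 0.04. The share of all genes compared that did so is not given here, so the count is not read as a result about these genes. The difference between the sexes was not tested, since each genotype has 1 library. Each value below is the female minus the male log2 ratio.

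Of the 12 leading genes of cluster 5, 4 were higher in mutant female cells and lower in mutant male cells with both intervals clear of 0. Tshz2 (0.29 and -0.89), En1 (0.34 and -0.38) and Syndig1 (0.13 and -0.72) lay on the same sides. For each of these at least 1 interval reached 0. Sst (-0.55 and -0.79) and Inpp4b (-0.61 and -0.77) were below 0 in both sexes with intervals clear of 0. Man1a (-0.19 and -0.44) and Pecam1 (-0.34 and -0.43) were below 0 in both, and Tmem163 (0.38 and 0.63) above 0 in both. For each of these 3 at least 1 interval reached 0. The number of cells in cluster 5 moved with the 4 genes, from 22 control to 25 mutant female cells and from 28 to 12 male cells. The difference was 2.65 for the potassium channel gene Kcnh8, 1.89 for Rorb, 1.73 for Gpc5 and 1.56 for Pcdh10. Kcnh8 stood at 9.40 CPM in control and 14.8 CPM in mutant female cells, and at 14.2 and 3.57 CPM in male cells. Pcdh10 stood at 73.1 and 104 CPM in female and at 101 and 49.2 CPM in male cells. The direction was the same for 2 leading genes of cluster 1, Pcdh15 at 0.89 and Etl4 at 0.87 and for Lmo4 of cluster 3 at 0.51.

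Another 12 genes went the other way, being lower in mutant female and higher in mutant male cells. Of 18 Purkinje identity genes, intervals lay above 0 for 4 and below 0 for 7 in female cells, and for 9 and 2 in male cells. Of 29 genes of dendrite and synapse maturation they lay above 0 for 3 and below 0 for 9 in female cells, and for 18 and 4 in male cells. Over all genes compared, they lay above 0 for 1423 and below 0 for 1010 of 11186 in female cells. In male cells they lay above 0 for 1400 and below 0 for 1390 of 11239. Intervals narrow with more UMIs, and the lists were not matched to all genes by level. The difference was -0.60 for Pcp2, -0.55 for Itpr1, -0.25 for the scaffold gene Shank2, -0.24 for Pcp4, -0.19 for Calb1 and -0.17 for Plcb4. Pcp2 stood at 796 CPM in control and 718 CPM in mutant female cells, and at 658 and 901 CPM in male cells. It was -0.59 for Hspb1, -0.54 for Cck, -0.46 for Asic2, -0.24 for Gabbr2, -0.12 for Sema3a and -0.10 for the cytochrome oxidase subunit gene Cox8a. Of these Pcp2, Itpr1 and Gabbr2 were highest in cluster 6 in both libraries, and Asic2 in the control library alone.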

How the results depend on the processing

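No paired analysis was possible because each genotype has 1 library. Of 547 values of the 38 genes named between the genotypes under other settings, 437 stayed within their counting interval, 102 moved beyond it and 8 changed sign. Those 8 were Cldn5 at -0.027, -0.037 and -0.021 and Ctla2a at -0.35, -0.36 and -0.35 in single-profile members (clusters at resolution 0.5, 0.3 and 1), Cxcl2 at -1.16 without high Scrublet scores, and Dcn at 0.020 in female cells.

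The count of higher genes in all members, 344, was 1470 with no minimum and 127 with a minimum of 200 UMIs. The count of lower genes, 491, was 271 without high Scrublet scores, 300 in male cells, 2119 with no minimum, 96 with a minimum of 200 UMIs, 247 in cells thinned to 10000 UMIs, and 314, 302 and 311 in single-profile members at the 3 resolutions. Higher genes were 41.2% of those apart in all members, 57.1% without high Scrublet scores, 56.4% in male cells and 57.0% with a minimum of 200 UMIs. They were 41.7% with TMM and 42.1% with DESeq2 factors.

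The members' share of Purkinje cells was 99.6% and 99.5% in female cells, 99.6% and 99.2% in male cells and 100% in both libraries without mixed and shallow clusters. The mutant to control ratio of the members' share of kept barcodes was 0.846 with the rule on thinned cells. The 211 genes of high variation became 121 in cells thinned to 5000 UMIs and 140 in single-profile members. The alternatives for Ebf2-negative cells were not run, as that comparison was not made. Single-profile members, their 3 resolutions and the setting without shallow clusters were added after seeing the data. Depth limits Cxcr4, Ackr3 and Cxcl12 in these cells, each at 11 UMIs or fewer per library in single-profile members.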

Other observations

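Members with a nuclear-like profile were found in both libraries. Cluster 8 held 21 control and 30 mutant cells, all members, at a median of 5563 UMIs and 1.71% mitochondrial UMIs. Skor2 stood at 529 and 479 CPM there, against 132 and 145 CPM over all members, and Ebf2 at 1657 and 1603 CPM, against 964 and 1015 CPM. Pcp2 stood at 97.0 and 48.8 CPM, against 673 and 748 CPM, and Calb1 at 1349 and 1589 CPM, against 3564 and 3636 CPM. Its leading genes included the antisense transcripts Far1os, Rsf1os1, Grip1os2 and Nrg3os, and Nrg3os stood at 511 and 550 CPM. These cells do not enter the single-profile comparison.

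Transcripts usually read as markers of other tissues were found in 1 Purkinje cluster. Pecam1, an adhesion molecule of endothelial cells, stood at 38.7 and 37.3 CPM in cluster 5, against 2.76 and 2.62 CPM in the other single-profile clusters, with a UMI in 42.9% and 41.2% of the cells. Sst, which also marks inhibitory interneurons, had a UMI in 48.2% and 52.9% of cluster 5 cells. A high doublet score was given to 9.35% of the cells of cluster 5, against at most 1.89% in clusters 1, 2, 3 and 6. Both Xist and Y-linked UMIs were in 9.35% of the cells of cluster 5. Cells with high doublet scores were kept in the cluster values. The 3 endothelial markers together summed to 7.88 and 6.39 CPM over single-profile members.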
